A study of Homo sapiens with 5 samples.

Results

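Traffic between the nucleus and the cytoplasm passes through nuclear pore complexes, large assemblies of nucleoporins in which scaffold rings hold a channel lined with phenylalanine-glycine (FG) repeats. Cargo crosses the channel on receptors of the karyopherin family, importins for entry and exportins for exit, whose loading and unloading is set by the small GTPase Ran. Pores disassemble when human cells enter mitosis and are rebuilt afterwards, and new ones are added in interphase, so a dividing culture keeps making their parts. The genes described here were taken by symbol, and the set was chosen with earlier results of these data known. Its genes are those whose symbol is NUP, KPNA, TNPO, IPO or XPO with a number, KPNB1 or XPOT. Symbols of NUP with L and a number, or with a number and L, were also taken. The set held 46 of 26364 listed genes, 22 nucleoporins and 24 transport receptors. NUP58 and NUP42 appear under their older symbols NUPL1 and NUPL2, antisense, pseudogene and read-through names were left out, and so was NUP62CL.

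Transcripts were measured by poly(A) mRNA-seq in growing IMR-90 cells, normal fibroblasts from human lung, 24 hr after siRNA transfection. The 2 Ctr-KD libraries came from cells given a control siRNA, and each of the 3 NSD2-KD libraries came from cells given another siRNA against the histone methyltransferase NSD2 (NSD2-1, NSD2-2 or NSD2-3), so siRNA and replicate cannot be told apart within NSD2-KD cells. The libraries held 2473691 to 2845063 reads on genes. The target, listed as WHSC1, had 463 and 443 normalized counts with the control siRNA and 90.2, 81.9 and 87.9 with NSD2-1, NSD2-2 and NSD2-3. All 10 fibroblast markers looked for, such as COL1A1 and LUM, had at least 352 normalized counts in every library, while PECAM1, PTPRC and SFTPC, markers of endothelium, blood and lung epithelium, were listed at 0. Of the epithelial and blood markers, KRT8, KRT18 and CD68 had between 60.5 and 154 normalized counts. The gap between the 2 Ctr-KD libraries barely exceeded counting noise (chi-square of 1.05 per degree of freedom). Between a Ctr-KD and an NSD2-KD library it was 3.87 to 5.08, and between NSD2-KD libraries 5.05 to 5.29. The NSD2-KD libraries thus differed among themselves about as much as from the Ctr-KD libraries. The spread within Ctr-KD may be technical, and the p-values then measure only the spread between these libraries. A drop in the share of cells that carry a transcript and a drop per cell look the same in such bulk libraries.

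Most nucleoporin and receptor transcripts were somewhat lower in NSD2-KD cells, by less than 2-fold. Of the 46 genes, 43 had a mean of at least 10 normalized counts and were tested. The others were NUP210, with 1 read in the NSD2-3 library and none elsewhere, and NUP210L and KPNA7, listed at 0. Of the 43, 33 had a negative log2 difference (76.7%, against 51.5% of all 11313 tested genes), with a median of -0.14 against -0.0089. In 19 of them (44.2%) every NSD2-KD library lay below both Ctr-KD libraries, a pattern shown by 13.9% of all tested genes, and in 1 of them, NUP133, every NSD2-KD library lay above, as in 13.8% of all tested genes. The summed normalized counts of the 46 genes were 11878 and 11964 in the Ctr-KD libraries and 11169, 10205 and 11133 with NSD2-1, NSD2-2 and NSD2-3. The sums of the 2 groups did not overlap, and the NSD2-2 library was the lowest. Abundant genes weigh most in such sums. With NSD2-1, KPNA2 had 426 normalized counts against 709 and 722, and TNPO1 458 against 755 and 773. The median log2 difference with NSD2-1 was -0.05, with 26 of the 43 genes negative, so its lower sum does not describe the set as a whole.

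No single gene passed the test across all genes. By limma on log2(normalized count + 1), with its variance trend and Benjamini-Hochberg adjustment, 0 of the 43 were called at an adjusted p under 0.05, against 10 of all tested genes (0.0884%), and the smallest adjusted p was 0.237. DESeq2 and edgeR on the recovered reads also called 0. At an unadjusted p under 0.05, 8 were lower (all tested genes, 4.99%) and 1 was higher (all tested genes, 4.19%). In place of these 8 there were 8 by edgeR, 3 by DESeq2, 2 without Ctr-1 and 2 without Ctr-2. The 1 higher gene was lost by DESeq2 and without Ctr-1, Ctr-2 or NSD2-3. With any 1 library left out, between 19 and 27 genes lay wholly below the Ctr-KD libraries and between 3 and 5 above. The shares of all tested genes then rose to between 20.6% and 23.7% below and between 21.0% and 23.8% above. One-sided exact permutation of 2 against 3 libraries cannot go below a p of 0.1, so single genes rest on the fit.

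**Figure D1:**
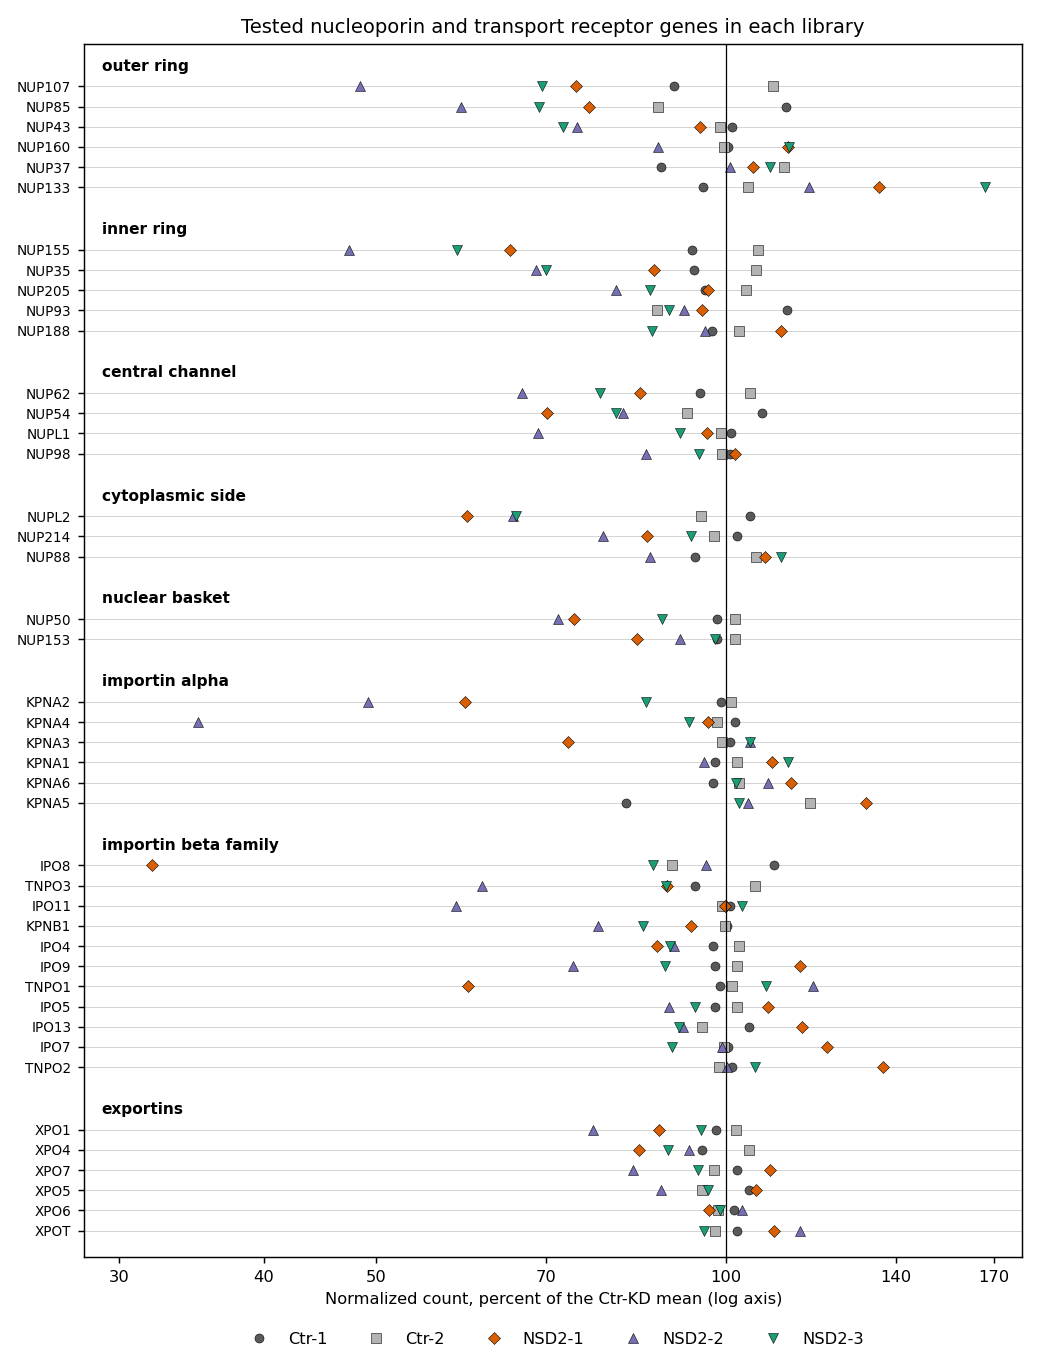
Normalized count of each of the 43 tested genes in each library, as a percent of that gene's Ctr-KD mean (log axis), in groups by place in the pore or by receptor family. Circles and squares are the 2 Ctr-KD libraries, and the coloured symbols are NSD2-1, NSD2-2 and NSD2-3, of which NSD2-2 is the lowest of all 5 libraries for 23 genes.

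The median was lower among the nucleoporins than among the receptors. Of 20 tested nucleoporins, 16 had a negative difference and 12 lay below both Ctr-KD libraries in all 3 NSD2-KD libraries, with a median log2 difference of -0.23. Of 23 tested receptors, 17 were negative and 7 lay wholly below, with a median of -0.11. Over all tested genes, 51.5% had a negative difference and 13.9% lay wholly below. The difference between nucleoporins and receptors was not tested.

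**Figure D2:**
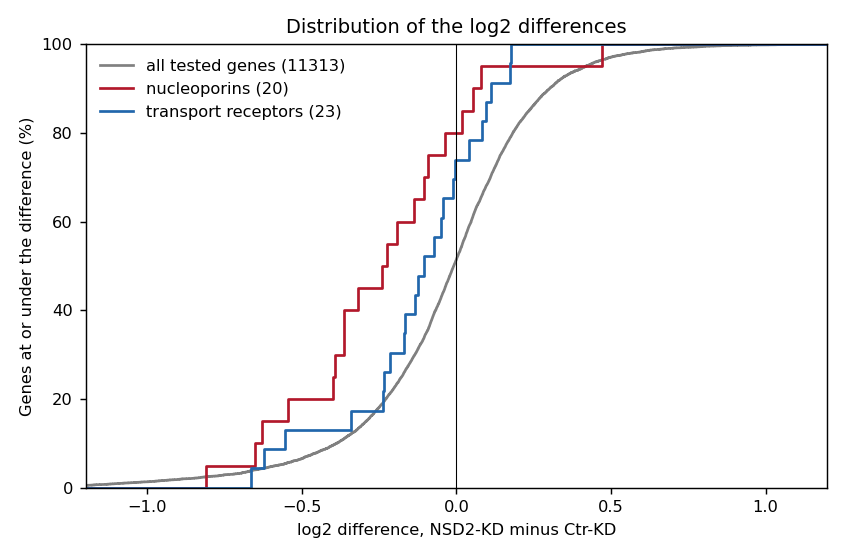
Cumulative share of genes (y axis, percent) at or under each log2 difference between NSD2-KD and Ctr-KD (x axis) for all 11313 tested genes, the 20 nucleoporins and the 23 receptors. The curve of the nucleoporins lies above that of all genes from its first step, NUP155 at -0.81, to its last but one, NUP37 at 0.08, and its last step is NUP133 at 0.47.

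The outer ring of the pore, built from Y-shaped complexes, was split. NUP107, on chromosome 12 from 69080731 to 69139589 (GRCh37), gives its name to this complex and had 104 and 127 normalized counts in the Ctr-KD libraries against 85.6, 55.7 and 80.0 with NSD2-1, NSD2-2 and NSD2-3. The groups did not overlap, and the log2 difference was -0.65 (standard error, SE, 0.22, adjusted p = 0.393 from limma). NUP85, another subunit of the Y, had 102 and 79.2 against 69.0, 53.5 and 62.5. Its log2 difference was -0.54 (SE 0.19, adjusted p = 0.424 from limma). Both Ctr-KD libraries exceeded all 3 NSD2-KD libraries, but they were themselves far apart. NUP43, at the same complex, had 101 and 98.8 against 94.8, 74.3 and 72.2. Exons of NUP107 overlap those of NUP107-DT on the other strand and exons of NUP43 those of PCMT1, so their counts are uncertain there.

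NUP133 went the other way. It is also a subunit of the Y. Its normalized counts were 87.6 and 95.7 in Ctr-KD cells and 124, 108 and 153 with NSD2-1, NSD2-2 and NSD2-3. The log2 difference was 0.47 (SE 0.18, adjusted p = 0.460 from limma). NUP133 was the one gene of the 43 above both Ctr-KD libraries with every siRNA, and the NSD2-3 library stood highest. Its exons overlap those of an unnamed gene on the same strand, so its counts are uncertain there. NUP160, at 113%, 87.3% and 113% of the Ctr-KD mean, and NUP37 overlapped between groups. The 6 genes classed here as outer ring thus held 3 negative and 3 positive differences, with a median of -0.13.

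All 5 inner ring genes had a negative difference, and the lowest of all 43 was among them. NUP155, a scaffold subunit next to the membrane, lies on chromosome 5 from 37288239 to 37371208. Ctr-KD cells had 106 and 120.4 normalized counts of it (mean 113 ± 10.3, SD, n = 2), and NSD2-1, NSD2-2 and NSD2-3 cells had 73.6, 53.5 and 66.4 (mean 64.5 ± 10.2, SD, n = 3). The highest NSD2-KD library was well below the lowest Ctr-KD library, and the log2 difference was -0.81 (95% confidence interval -1.24 to -0.38, adjusted p = 0.237 from limma). NUP35, which binds NUP155, had 21.0 and 23.7 against 19.3, 15.3 and 15.6. The groups did not overlap, but only by a narrow margin and on few reads. These were 22 and 23 in the Ctr-KD libraries and 21, 14 and 16 with NSD2-1, NSD2-2 and NSD2-3.

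The larger inner ring scaffolds differed little. NUP205 had a log2 difference of -0.19 and NUP188 of -0.04, both with overlapping groups. NUP93, which links the inner ring to the channel, had 185 and 143 normalized counts in Ctr-KD cells against 156, 151 and 146. Here the Ctr-KD libraries spanned the NSD2-KD libraries, so its log2 difference of -0.10 (SE 0.15) was within the spread, and it was 0.08 without Ctr-1.

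Of the 4 channel nucleoporins, whose FG repeats bind receptors in transit, 3 lay wholly below the Ctr-KD libraries (all tested genes, 13.9%) and NUP98 overlapped, and none passed the test. NUP62, the founding member of the group, had 249 and 275 normalized counts in Ctr-KD cells and 221, 175 and 204 with NSD2-1, NSD2-2 and NSD2-3 (log2 difference -0.39, SE 0.14, adjusted p = 0.424 from limma). Its exons overlap those of IL4I1 on the same strand and ATF5 on the other, so its counts are uncertain there. NUP54, a partner of NUP62, had 70.5 and 60.7 against 46.0, 53.5 and 52.7. NUPL1, the other partner, had 146 and 143 against 139, 99.4 and 132. In all 3 genes of this trimer every NSD2-KD library was below both Ctr-KD libraries. NUP98, an FG protein that also binds mRNA export factors, had 347 and 342 against 351, 294 and 326, and its groups overlapped (log2 difference -0.09, SE 0.12). Exons of NUP98 overlap those of CHRNA10 on the same strand and PGAP2 on the other, so its counts are uncertain there too.

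On the cytoplasmic face, NUPL2, which works with the mRNA export factor GLE1, had 41.9 and 38.1 normalized counts in Ctr-KD cells and 23.9, 26.2 and 26.4 with NSD2-1, NSD2-2 and NSD2-3. The 3 siRNAs stood at 59.8%, 65.6% and 65.9% of the Ctr-KD mean, and the log2 difference was -0.63 (SE 0.21, adjusted p = 0.401 from limma). This rests on few reads, 44 and 37 in the Ctr-KD libraries and 26, 24 and 27 in the NSD2-KD libraries. The closeness of the 3 siRNAs is therefore uncertain. Exons of NUPL2 also overlap those of an unnamed gene on the other strand. NUP214, which anchors the cytoplasmic filaments, had 207 and 198 against 173, 158 and 188 (log2 difference -0.22, adjusted p = 0.666 from limma). Its partner NUP88 overlapped between groups, with a log2 difference of 0.02.

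At the nuclear basket, NUP50, a cofactor of importin alpha and beta, had 212 and 220.2 normalized counts in Ctr-KD cells and 160.1, 155 and 190.3 with NSD2-1, NSD2-2 and NSD2-3 (log2 difference -0.36, SE 0.14, adjusted p = 0.458 from limma). NUP153, which holds the basket to the ring, had 237 and 246 against 202, 221 and 236, and its log2 difference was -0.14 (SE 0.12). Both lay below the Ctr-KD libraries with every siRNA, though NUP153 with NSD2-3 by about 1 normalized count.

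**Figure D3:**
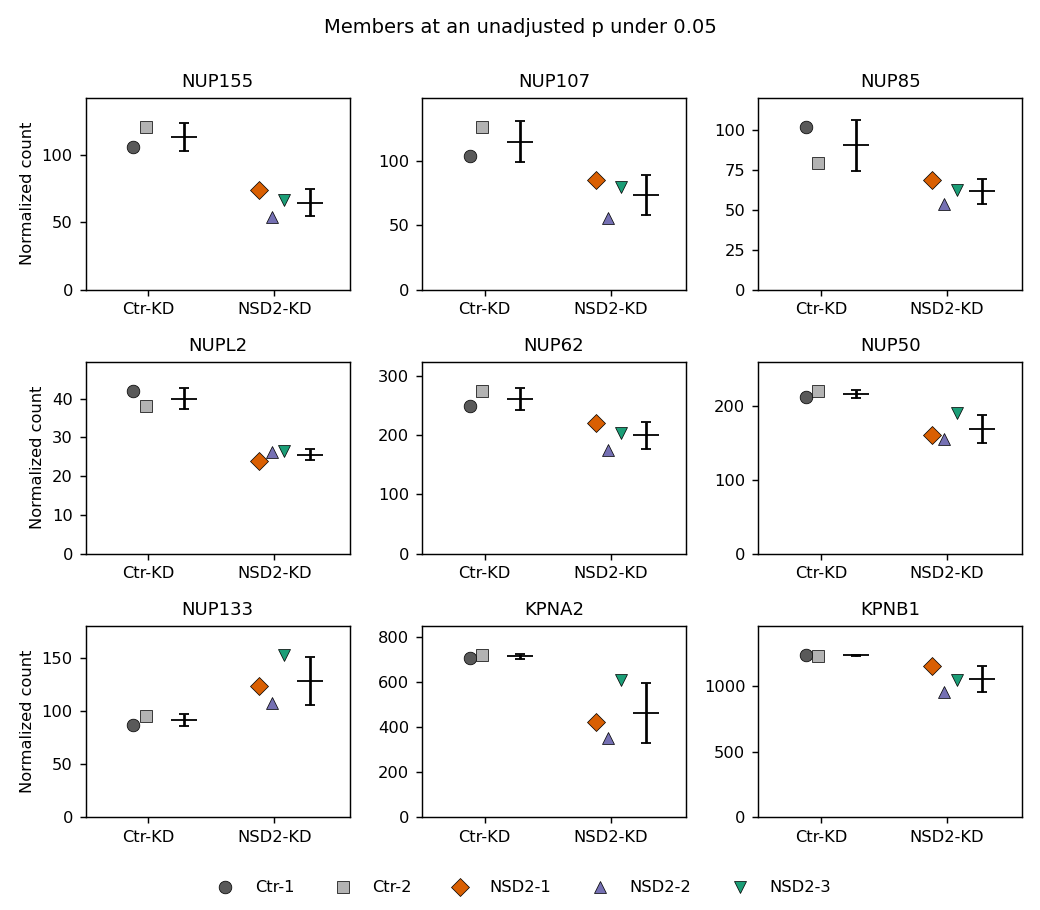
Normalized counts (y axis, from 0) of the 9 genes at an unadjusted p under 0.05, with 1 symbol per library and the mean and SD of each group (n = 2 and n = 3). NUP133 is the one gene of the 9 in which the NSD2-KD libraries lie above the Ctr-KD libraries.

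Importin alpha proteins read the classical nuclear localization signal and bridge it to importin beta. KPNA2, the isoform known for its link to proliferation, lies on chromosome 17 from 66031752 to 66043480 and was the most abundant gene of the 46 per transcript length, at a mean of 137 RPKM in Ctr-KD cells (recovered reads per kilobase of transcript, scaled to the reads on genes). Ctr-KD cells had 709 and 722 normalized counts of it (mean 716 ± 9.50, SD, n = 2), and cells with NSD2-1, NSD2-2 and NSD2-3 had 426, 352 and 611 (mean 463 ± 134, SD, n = 3). It was lower with every siRNA, at 59.5%, 49.2% and 85.4% of the Ctr-KD mean, but the siRNAs differed widely. The difference on the log2 scale was -0.67 (SE 0.20, adjusted p = 0.352 from limma). Without the NSD2-3 library it was -0.88 and was called (adjusted p = 0.0381 from limma, with a range from 0.0168 to 1.00 over all alternatives). The annotation lists 3 pseudogenes of KPNA2, so its counts are uncertain where copies are near identical.

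Of the other importin alpha genes, KPNA4 also lay wholly below the Ctr-KD libraries, with 371 and 358 normalized counts against 352, 128 and 339, far below only with NSD2-2. KPNA1, KPNA5 and KPNA6 had positive differences of 0.08, 0.17 and 0.11, and KPNA3 stood low with NSD2-1 alone. KPNA2 therefore made up less of the family. Per transcript length it held 62.5% and 62.8% of the importin alpha level in the Ctr-KD libraries and 51.7%, 47.4% and 58.2% with NSD2-1, NSD2-2 and NSD2-3, without overlap. The summed level of the family was 217 and 219 RPKM in Ctr-KD cells and 159, 139 and 201 in NSD2-KD cells. KPNA5 was the lowest of those tested, at a mean of 0.35 RPKM in Ctr-KD cells.

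**Figure D4:**
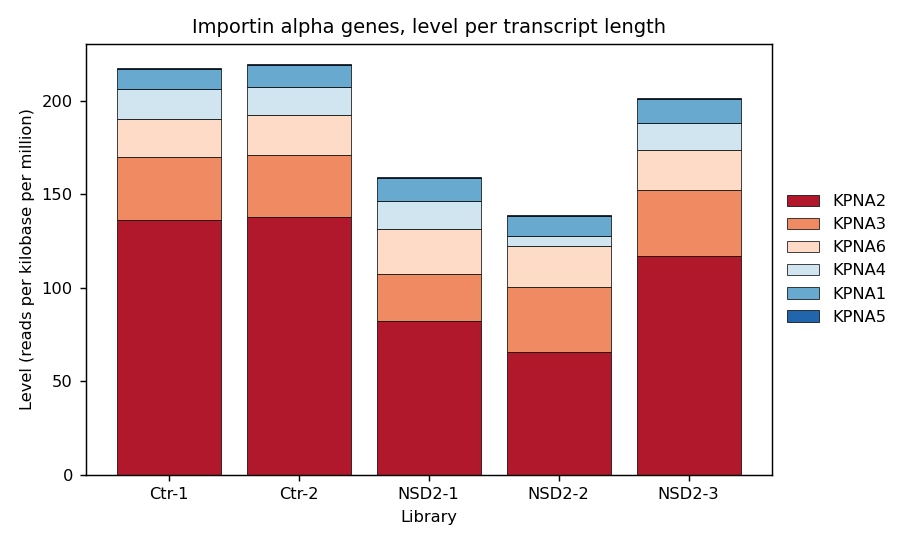
Level of each importin alpha gene in each library, in RPKM (stacked bars from 0). The KPNA2 part is the largest in all 5 libraries and is lower with each NSD2 siRNA, and the total runs from 139 with NSD2-2 to 219 in a Ctr-KD library.

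The upstream stretch of KPNA2 is shown because this gene had the lowest difference among the receptors, and short pieces of NUP155 and NUP107 because theirs were the lowest among the nucleoporins. Capitals mark the letters searched for on both strands. These were TTTGAA (the CHR element of genes with a peak in G2/M), TTTCGCGC and TTTGGCGC (E2F type) and CCAAT (NF-Y type). Sequences are from RefSeq on GRCh38.p14, read along the gene, with position 1 at its first transcribed base.
KPNA2, positions -250 to -1, plus strand, chr17:68035485-68035734: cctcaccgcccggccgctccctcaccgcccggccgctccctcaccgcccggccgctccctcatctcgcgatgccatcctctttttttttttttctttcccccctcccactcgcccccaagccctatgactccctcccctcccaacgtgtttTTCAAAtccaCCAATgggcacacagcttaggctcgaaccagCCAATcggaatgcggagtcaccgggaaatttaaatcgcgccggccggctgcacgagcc
KPNA2, positions 20 to 49, plus strand, chr17:68035754-68035783: tcgaggtggacccTTTGAAcgcagtcgccc
NUP155, positions 10 to 39, minus strand, chr5:37371068-37371097: ccaaggcgctcgTTTGGCGCgcgcgcccta
NUP107, positions -150 to -121, plus strand, chr12:68686828-68686857: aaccaggaacacATTGGcaaacttttgcgc

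KPNA2 thus held TTTGAA on either side of its start site, before it on the other strand (TTCAAA), and CCAAT 2 times before it, NUP155 held TTTGGCGC, and NUP107 held CCAAT on its other strand. RefSeq promoters (250 bases before to 50 after the start) matched 40 of the 46 genes. TTTGAA was in 25% of these 40 genes, against 13.7% of tested genes with a promoter, and CCAAT in 50% against 43.4%. An E2F-type motif was in 7.5% (3 of the 40) against 2.51%. Among the genes wholly below the Ctr-KD libraries, 4 of 16 held TTTGAA, and among the other tested genes of the set 6 of 22 did, so the share was alike in both. CCAAT was in 8 of the 16 and 11 of the 22, and an E2F-type motif in 1 of the 16 and 2 of the 22. These are matches of letters only.

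The importin beta family carries cargo directly or with an adaptor. KPNB1, importin beta itself, lies on chromosome 17 from 45726842 to 45762871 and had 1237 and 1231 normalized counts in Ctr-KD cells and 1152, 957 and 1047 with NSD2-1, NSD2-2 and NSD2-3. The Ctr-KD libraries were nearly equal and all 3 NSD2-KD libraries lay below them (log2 difference -0.23, SE 0.10, adjusted p = 0.544 from limma). TNPO3, an importer of SR splicing factors, had 227 and 255 against 214, 149 and 214, and IPO4, an importer of histones and ribosomal proteins, had 182 and 191 against 163, 168 and 167. These 3 were the family members wholly below the Ctr-KD libraries, of 11 tested (27.3%, against 13.9% of all tested genes). IPO5, IPO7, IPO9, IPO11, IPO13 and TNPO2 overlapped between groups, with log2 differences from -0.24 for IPO11, whose exons overlap those of LRRC70, to 0.18 for TNPO2.

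Among exportins, XPO1, the receptor of the leucine-rich export signal, had 569.7 and 594 normalized counts in Ctr-KD cells and 509, 447 and 553 with NSD2-1, NSD2-2 and NSD2-3 (log2 difference -0.21, SE 0.12, adjusted p = 0.635 from limma). XPO4 had 120.0 and 132 against 106, 117 and 112. Both were wholly below the Ctr-KD libraries, by a narrow margin, as 2 of 6 tested exportins (33.3%, against 13.9% of all tested genes). XPOT, the tRNA exporter, XPO5, the exporter of microRNA precursors, XPO6, the exporter of actin, and XPO7 had log2 differences between -0.07 and 0.10. For XPO6 the 95% confidence interval of the log2 difference ran from -0.23 to 0.22. The exportins had a median of -0.06 over 6 genes, and their summed normalized counts stood at 99.1%, 95.5% and 95.8% of the Ctr-KD mean with NSD2-1, NSD2-2 and NSD2-3.

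Some receptor genes were low in 1 NSD2-KD library and near or above the control level in the other two. IPO8, an importin with a role in microRNA-guided silencing, had 180.1 and 147 normalized counts in Ctr-KD cells, 157 with NSD2-2 and 142 with NSD2-3, but 52.4 with NSD2-1, which is 32.1% of the Ctr-KD mean. KPNA4, given above, had 128 with NSD2-2, which is 35.1% of its Ctr-KD mean. Both values lay far outside the range of the other 4 libraries. TNPO1, the importer of hnRNP proteins, had 755 and 773 in Ctr-KD cells and 458, 907 and 827 with NSD2-1, NSD2-2 and NSD2-3. The annotation lists 3 pseudogenes of TNPO1, as of KPNA2, and 1 each of IPO8 and KPNA4. KPNA3 stood at 73.1% of its Ctr-KD mean with NSD2-1 and at 105% with each of the others. These 4 genes were picked after their values were seen. Of the 32 genes of the set with a mean of at least 100 normalized counts, 2 (IPO8 and KPNA4) had an NSD2-KD library at or under 0.5 of each other library, against 1.37% of all 5120 such genes. Of those 5120 genes, 0 had a Ctr-KD library that low, while 16 had NSD2-1, 34 had NSD2-2 and 20 had NSD2-3. As each siRNA has 1 library, such a value has no replicate, and siRNA and library cannot be told apart. In the fit of both groups, IPO8 had a log2 difference of -0.62 (SE 0.42) and KPNA4 of -0.55 (SE 0.39), neither near the threshold. These were -0.12 for IPO8 without NSD2-1 and -0.08 for KPNA4 without NSD2-2, and without NSD2-1 the differences of TNPO1 and KPNA3 were positive, at 0.18 and 0.07.

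**Figure D5:**
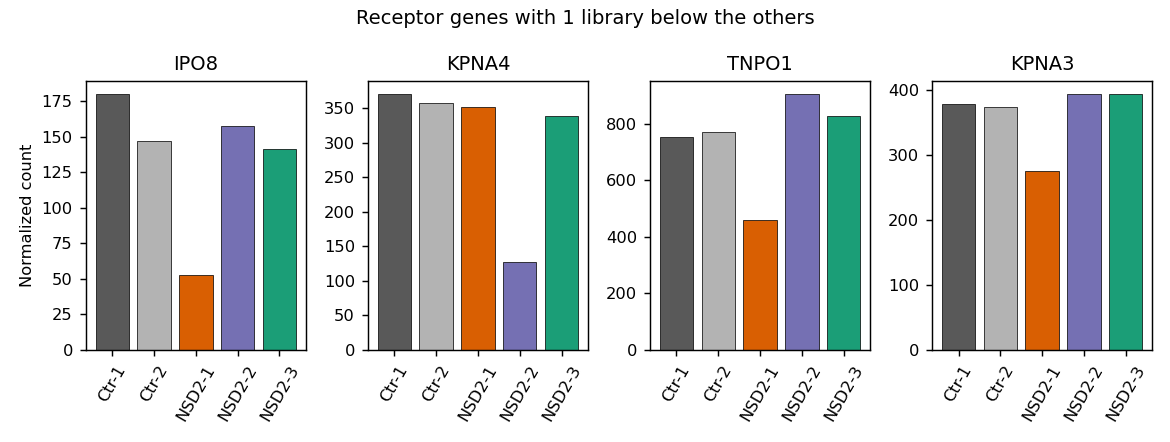
Normalized counts (bars from 0) of IPO8, KPNA4, TNPO1 and KPNA3 in each of the 5 libraries. IPO8, TNPO1 and KPNA3 are lowest in the NSD2-1 library and KPNA4 in the NSD2-2 library, while the other NSD2-KD libraries stay near the Ctr-KD level or, for TNPO1, somewhat above it.

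The NSD2-2 library was the lowest of the 5 for 23 of the 43 genes (53.5%), against 24.7% of all tested genes. The median log2 difference from the Ctr-KD mean was -0.05 with NSD2-1, -0.21 with NSD2-2 and -0.13 with NSD2-3. Proliferation genes were lowest with the same siRNA. The summed normalized counts of 43 S phase genes were 4424 and 4498 in Ctr-KD cells and stood at 56.7%, 42.5% and 58.1% of the Ctr-KD mean with NSD2-1, NSD2-2 and NSD2-3, and those of 54 G2/M phase genes at 61.6%, 47.3% and 67.3%. For the 46 genes of the pore and its receptors the same sums stood at 93.7%, 85.6% and 93.4%. KPNA2 alone, at 59.5%, 49.2% and 85.4%, stood near the percent of the G2/M sum with 2 of the siRNAs, NSD2-1 and NSD2-2. The part of proliferation in these differences was not tested.

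Among genes of the same pathway with other names, the lists differed in their share of negative differences. Of 11 nucleoporins under other symbols, 6 were negative and 5 positive (54.5% negative, near the 51.5% of all tested genes), 5 lay wholly below the Ctr-KD libraries (45.5%, against 13.9% of all tested genes) and 0 above, with a median log2 difference of -0.04. NDC1, a membrane nucleoporin, had a lower log2 difference than any of the 43, at 149.6 and 169 normalized counts in Ctr-KD cells against 93.9, 56.8 and 75.2 (log2 difference -1.10, SE 0.22, adjusted p = 0.198 from limma). AHCTF1, which seeds new pores on chromatin after mitosis, had 131 and 139.9 against 119.6, 87.4 and 83.9 (log2 difference -0.49). TPR, the filament of the nuclear basket, overlapped between groups (log2 difference -0.04).

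Of 11 genes of the Ran cycle and its cofactors, 10 were negative (90.9%), with a median of -0.26. Of the 11, 6 lay wholly below (54.5%, against 13.9% of all tested genes) and 0 above. CSE1L, which returns importin alpha to the cytoplasm, had 367 and 346 normalized counts in Ctr-KD cells against 282, 213 and 264 (log2 difference -0.50, SE 0.14, adjusted p = 0.315 from limma). RANGAP1, the GTPase activator of Ran, had a log2 difference of -0.26 (SE 0.09), and RANBP1, its cofactor, one of -0.32 (SE 0.13). RAN had 746 and 741 against 732, 489 and 669.6, with the NSD2-2 library well below the rest. Of 17 mRNA export genes 16 were tested, of which 9 were negative and 7 positive (56.3% negative), with 5 wholly below (31.3%), 1 above and a median of -0.17. DDX39A (log2 difference -0.47, SE 0.13) and ALYREF (-0.34, SE 0.14), both of the TREX pathway, were lower with each siRNA, while NXF1, the main mRNA export receptor, was at 0.02. None of these 38 tested genes passed an adjusted p of 0.05 in limma, and 7 were lower at an unadjusted p under 0.05 (all tested genes, 4.99%).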

How the data were processed

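According to the study's methods, reads (single-end, MiSeq) were trimmed with Trimmomatic, mapped to hg19 with HISAT2, reduced to unique hits with SAMtools and counted per gene with featureCounts. Annotation and strand setting are not given in the sources used here, and exons of 24 of the 46 genes overlap another gene on either strand (GENCODE on GRCh37). Only some of these overlaps, and of the pseudogenes of the set, are named above. The deposited signal is the normalized count, which the authors made by dividing each gene's reads by a DESeq2 size factor per library. A second deposited table holds only the authors' own comparison and was not used. All values (100%, tolerance 0.01) were whole multiples of 1 read, so reads were recovered.

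Only genes whose mean reached 10 normalized counts entered the test in limma 3.58.1 on log2(normalized count + 1), with a mean-variance trend, no covariates and Benjamini-Hochberg adjustment over all of them. Differences on this scale understate those of low genes. edgeR 4.0.16, DESeq2 1.42.0, other pseudocounts, filters and scalings, a replicate block and leaving out each library were alternatives. Fits were checked on simulated counts with larger changes than those of the set and an equal spread in all libraries. Smaller changes and an unequal spread were not checked. Levels between genes use RPKM, recovered reads per kilobase of the canonical transcript, scaled to the reads on genes. S and G2/M lists came with Seurat 5.3.0. Genes given with full values were those at an unadjusted p under 0.05, the 3 largest differences each way without overlap and 10 textbook representatives, and other genes of the set were named after their values were seen. The genes and lists were chosen with earlier results of these data known.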

Additional observations from a re-analysis of the deposited data

How the results depend on the processing

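The median log2 difference of the tested genes of the set stayed between -0.18 and -0.10 under the 14 alternatives, the latter without the NSD2-2 library, and the count wholly below the Ctr-KD libraries between 17 and 27 against 19. The count wholly above, 1, was between 3 and 5 with a library left out, while the share of all tested genes was between 21.0% and 23.8%. Genes lower at an unadjusted p under 0.05 numbered 8, and between 2 and 11 under the alternatives (11 with the replicate block, 9 without the trend, 3 by DESeq2, 2 to 8 with a library left out), and the 1 higher gene was lost (0) by DESeq2, with the replicate block and, in some cases, with a library left out (0 to 1). KPNA2 was the 1 gene called lower with the replicate block and without the NSD2-3 library (0 to 1 called with a library left out). The block fits the replicate number of the labels. For NSD2-KD this is the number of the siRNA, same-numbered libraries did not deviate together (correlations of -0.015 and -0.027), and NSD2-3 has no partner, so the block leaves it out in effect. It gave -0.88 for KPNA2 (adjusted p = 0.0168 from limma) and 102 calls over all genes against 10. Leaving out a Ctr-KD library assumes that the lone one varies like the NSD2-KD libraries. With a library left out, NUP93 lay between -0.288 and 0.0793, positive without Ctr-1, TNPO1 between -0.310 and 0.181 and KPNA3 between -0.192 and 0.0674, both positive without NSD2-1. The 19 genes wholly below the Ctr-KD libraries could change sign only by a rescaling of the libraries, and all 19 kept it. Of the 43 tested genes 27, these 19 included, kept their sign under every alternative that tested them, and 16 did not under at least 1. The cause of these shifts was not tested. Depth limits genes such as KPNA5 and NUP35 most.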
